A study of Mus musculus with 35 samples.

Results

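The phagocyte NADPH oxidase was described here through 5 genes: Cybb, Cyba, Ncf1, Ncf4 and Rac2. They were taken by symbol from the 49671 genes of the count table, and all 5 were among the 17166 genes that passed the filter on low counts. RNA was sequenced from mouse hematopoietic stem and progenitor cells in 35 libraries, 5 for each of 7 conditions, and total counts per library were between 31559914 and 75810659. The cells were lineage-negative bone marrow cells of C57Bl/6 mice of both sexes, transduced with lentivirus, sorted by fluorescence and kept for 1 week in methylcellulose medium with growth factors (Methocult M3434) and 10 ng/mL GM-CSF. The mice were 8 weeks old, except for Empty replicate 4 (9 weeks), Empty replicate 5 (10 weeks) and G-NHX9 replicate 1 (11 weeks). Empty cells carried the empty vector and were sorted as mCherry-positive. Every construct was the NUP98-HOXA9 leukemia fusion, or a mutant of it, tagged with mEGFP. Cells with a construct were sorted as positive for mCherry and mEGFP, so that sorting on mEGFP was applied only to them. The study names EGFP for empty vector plasmids elsewhere, so whether these controls lacked it is not clear.

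G-NHX9 was the full fusion, in which the phenylalanine-glycine (FG) rich N-terminal part of the nucleoporin NUP98 is joined to the DNA-binding homeodomain of HOXA9. In G-NHX9-8FA, phenylalanines of FG motifs near the C-terminal end of the NUP98 part were replaced by alanine. G-NHX9-21FGAA had both residues of FG motifs replaced by alanine. G-NHX9-midi kept only the C-terminal portion of the NUP98 part, without the GLEBS domain, and G-NHX9-midi-21FGAA was the same truncation with the FG motifs replaced. In G-NHX9-DDNA the homeodomain was mutated to weaken DNA binding. The study calls these proteins G-NHA9 (the full fusion), G-NHA9–8FA, G-NHA9Midi (the truncation), G-NHA9–21FGAA, G-NHA9Midi–21FGAA and, for the homeodomain mutant, G-NHA9–ΔDNA.

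The phagocyte oxidase transfers electrons from NADPH across a membrane to oxygen and so makes superoxide, which neutrophils and macrophages use against ingested microbes. Its membrane core is flavocytochrome b558, a pair of gp91phox (NOX2, encoded by Cybb) and p22phox (encoded by Cyba). In resting cells regulators such as p47phox (Ncf1) and p40phox (Ncf4) are in the cytosol, and on stimulation they join the core together with the GTP-bound form of the small GTPase Rac2. Loss of a phox subunit causes chronic granulomatous disease, and the genes are switched on as myeloid cells mature.

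The 5 genes are spread over 4 chromosomes of the mouse genome (GRCm38/mm10, GENCODE M21). Cybb (ENSMUSG00000015340.10) is on the minus strand at chrX:9435252-9487771 and Cyba (ENSMUSG00000006519.11) on the minus strand at chr8:122424776-122432930, inside the long protein-coding model Gm20388 of the opposite strand. Ncf1 (ENSMUSG00000015950.13) is on the minus strand at chr5:134220053-134229625, where its 3′ part overlaps Gtf2ird2 on the opposite strand. Ncf4 (ENSMUSG00000071715.11, plus strand, chr15:78244801-78262580) and Rac2 (ENSMUSG00000033220.6, minus strand, chr15:78559167-78572783) are on the same chromosome, 296586 bases apart with 10 protein-coding genes between them. The libraries were stranded, but the strand setting of the counting was not given in the sources used here, so reads of Cyba and Ncf1 may include some from their overlapping partners.

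Promoter sequence was found for 3 of the 5 genes in RefSeq (GRCm38.p6), Cybb, Cyba and Ncf1. The 250 bases before each RefSeq start are shown because the transcription factor PU.1, which binds purine-rich ETS sites, is known to act on these genes. Sites of the homeodomain of the fusion were not searched for. Capitals mark the ETS core GGAA, read on either strand (so TTCC also), and the CCAAT box. The regions are chrX:9469325-9469574, chr8:122432941-122433190 and chr5:134229626-134229875, all on the minus strand and written 5′ to 3′ along the gene. The Cybb region lies inside the GENCODE span of Cybb given above, which begins further upstream than this RefSeq start.
Cybb: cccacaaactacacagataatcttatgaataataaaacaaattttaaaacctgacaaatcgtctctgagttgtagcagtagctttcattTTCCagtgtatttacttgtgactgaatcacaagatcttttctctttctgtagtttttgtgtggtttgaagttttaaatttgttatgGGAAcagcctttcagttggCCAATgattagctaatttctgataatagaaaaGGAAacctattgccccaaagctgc
Cyba: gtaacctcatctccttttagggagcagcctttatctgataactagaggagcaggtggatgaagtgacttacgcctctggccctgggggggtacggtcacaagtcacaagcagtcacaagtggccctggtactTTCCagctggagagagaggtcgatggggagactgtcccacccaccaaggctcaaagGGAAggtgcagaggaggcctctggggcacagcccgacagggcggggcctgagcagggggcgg
Ncf1: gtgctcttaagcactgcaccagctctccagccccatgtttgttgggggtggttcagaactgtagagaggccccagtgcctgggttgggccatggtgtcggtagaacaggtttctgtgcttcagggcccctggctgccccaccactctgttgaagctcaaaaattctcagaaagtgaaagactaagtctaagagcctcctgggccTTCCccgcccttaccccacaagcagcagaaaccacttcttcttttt
GGAA was found 3 times in the Cybb window, 2 times in that of Cyba and 1 time in that of Ncf1, and it is present on either strand in 93.4% of the 32817 promoters of this length. CCAAT was found only in the Cybb window, where it stands 1 time, and is in 33.8% of promoters. The longer forms GAGGAA (23.3% of promoters) and the joined ETS and IRF motif (GGAA and GAAA with any 2 bases between them, 2.30%), which both contain GGAA, were in none of the 3 windows. A match is a description of the letters and no evidence of binding.

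All 5 genes were well expressed in every library, with 3483 to 61005 counts each. In CPM (counts scaled to the same total in every library, with TMM scaling factors), their means over the 35 libraries were 664 for Cybb, 599 for Cyba, 429.9 for Ncf1, 286 for Rac2 and 142 for Ncf4. These levels put Cybb, Cyba, Ncf1 and Rac2 above 97.0% of the genes tested and Ncf4 above 92.3%. Per kilobase of exon the level of Cyba, a short gene, was 577 CPM, against 117 for Ncf1, 114 for Cybb, 92.1 for Rac2 and 70.3 for Ncf4. Rac2 also varied little: the SD of its log2 CPM over the 35 libraries was below that of all but 4.45% of the genes tested.

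**Figure D1:**
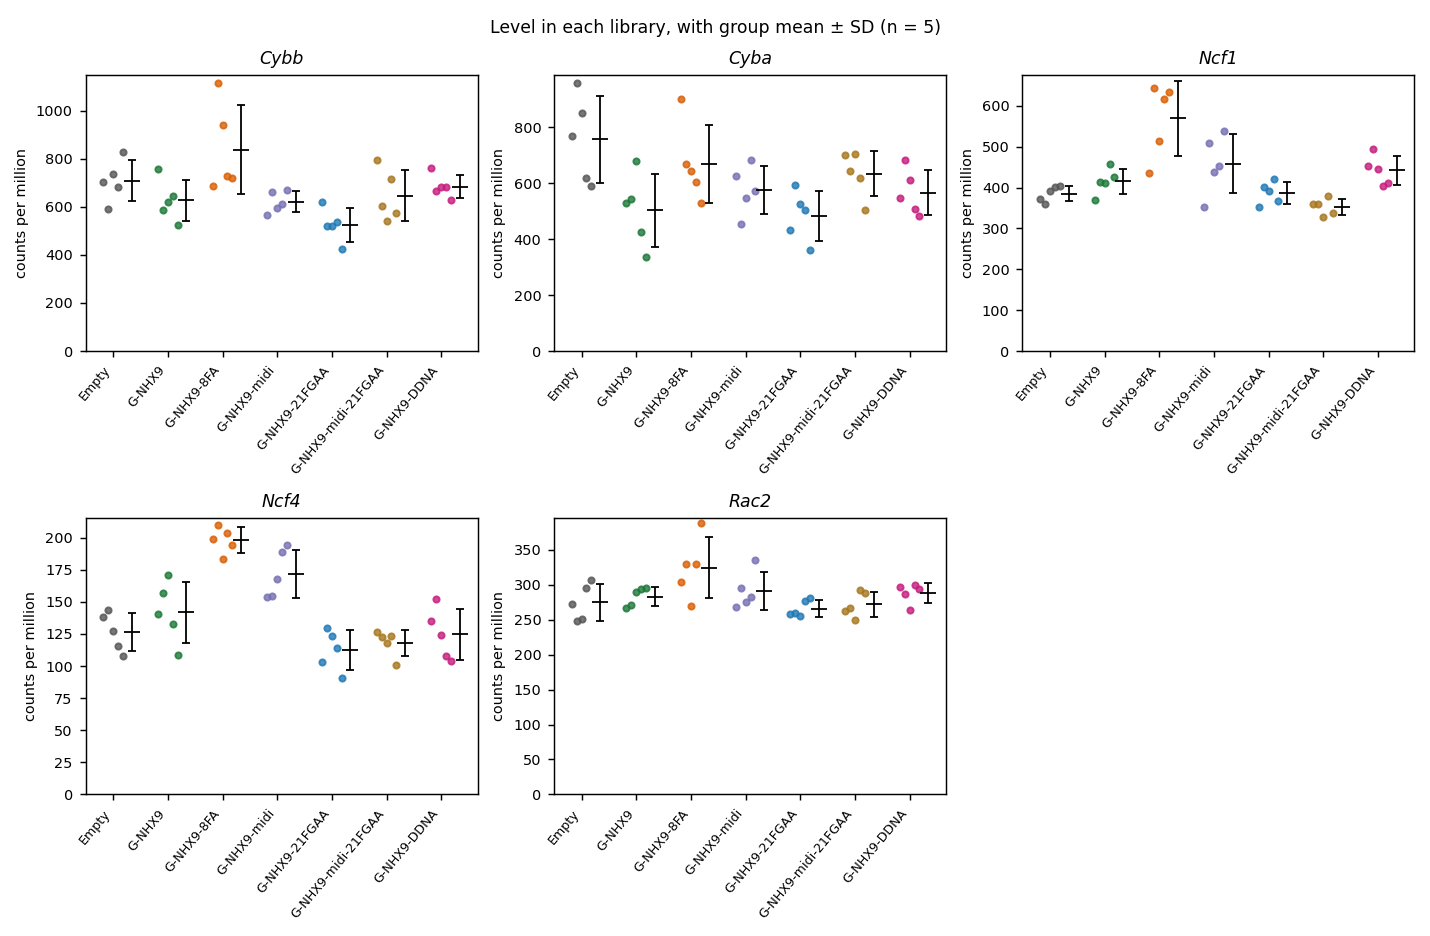
Level of each of the 5 oxidase genes in every library (y axis, TMM-scaled CPM, linear from 0), for the 7 conditions on the x axis, with points for the 5 libraries and bars for mean and SD. Ncf4 in G-NHX9-8FA lies between 184 and 209.6 CPM, above the 108 to 144 CPM of Empty.

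For 4 of the 5 genes the mean was highest in G-NHX9-8FA, and Cyba had its highest in Empty. The lowest mean was in G-NHX9-21FGAA for Cybb, Cyba, Ncf4 and Rac2, and in G-NHX9-midi-21FGAA for Ncf1. The highest mean was 1.76 times the lowest for Ncf4, 1.61 times for Ncf1, 1.60 times for Cybb, 1.57 times for Cyba and 1.22 times for Rac2. By edgeR's quasi-likelihood test no neighbours in the 5 orders passed (adjusted p 0.0676 to 0.981). Ncf1 in G-NHX9-midi against G-NHX9-8FA did pass with DESeq2 (adjusted p = 0.0314) and with replicate number as a block in edgeR (adjusted p = 0.0251), and Ncf4 in G-NHX9-midi against G-NHX9 passed with that block (adjusted p = 0.0247).

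Comparisons between conditions used that test with Benjamini-Hochberg adjustment over all genes tested and a threshold of 0.05. The labels do not say whether the replicates came from separate animals or cultures, so p-values measure the spread between these libraries. All comparisons with Empty share its 5 libraries, and all with G-NHX9-8FA share those 5. In bulk RNA, fewer cells of a type and less RNA per cell cannot be told apart. Over the 21 pairs of conditions, 28 of 105 tests of the 5 genes passed, and 18 of these 28 had G-NHX9-8FA on one side. Among all genes tested, the share that changed in either direction ran from 0.915% to 43.2% over these pairs. In the pairs with G-NHX9-8FA it ran from 4.25% to 37.8%.

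Against Empty, G-NHX9-8FA had 3 of the 5 genes higher (Ncf1, Ncf4 and Rac2) and none lower. In that comparison 13.4% of all genes tested were higher and 26.6% changed in either direction, and the median log2 fold change was 0.24 over the 5 genes and 0.03 over all genes. G-NHX9-midi had Ncf1 and Ncf4 higher, where 20.5% of all genes were higher. G-NHX9 had only Cyba lower, against 15.2% of all genes, and G-NHX9-21FGAA had Cybb and Cyba lower, against 12.5%. None of the 5 genes passed in G-NHX9-midi-21FGAA or in G-NHX9-DDNA, where 16.9% and 17.2% of all genes changed. In G-NHX9-midi-21FGAA 0 genes had an unadjusted p under 0.05, in G-NHX9-DDNA 1 did (Cyba), and DESeq2 also called 0 in both.

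Between constructs, Cybb, Ncf1 and Ncf4 were higher in G-NHX9-8FA than in G-NHX9, against 6.43% of all genes higher, with a median log2 fold change of 0.42 over the 5 genes and 0.01 over all. Ncf4 alone was lower in G-NHX9-21FGAA than in G-NHX9 (8.34% of all genes lower). G-NHX9-midi and G-NHX9-DDNA did not differ from G-NHX9 in any of the 5 by edgeR or DESeq2, with 19.7% and 22.1% of all genes changed. At an unadjusted p under 0.05, 1 gene (Ncf4) stood out in G-NHX9-midi and 0 in G-NHX9-DDNA. G-NHX9-midi and G-NHX9-8FA differed in 4.25% of all genes, and of the 5 genes only Cybb was lower in G-NHX9-midi (2.74% of all genes lower), where it did not overlap (5.25% of all genes).

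The comparisons with G-NHX9-8FA held the most calls. All 5 genes were lower in G-NHX9-21FGAA (17.1% of all genes lower) with a median log2 fold change of -0.56, against -0.03 over all genes. In G-NHX9-midi-21FGAA 4 of 5 were lower, all but Cyba (20% of all genes lower), and in G-NHX9-DDNA Ncf1 and Ncf4 were (18.3%). These 3 comparisons were added after the values had been seen. Against G-NHX9-midi, Ncf1 and Ncf4 were lower in G-NHX9-midi-21FGAA (22.2% of all genes lower) and Ncf4 in G-NHX9-21FGAA (18.1%).

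**Figure D2:**
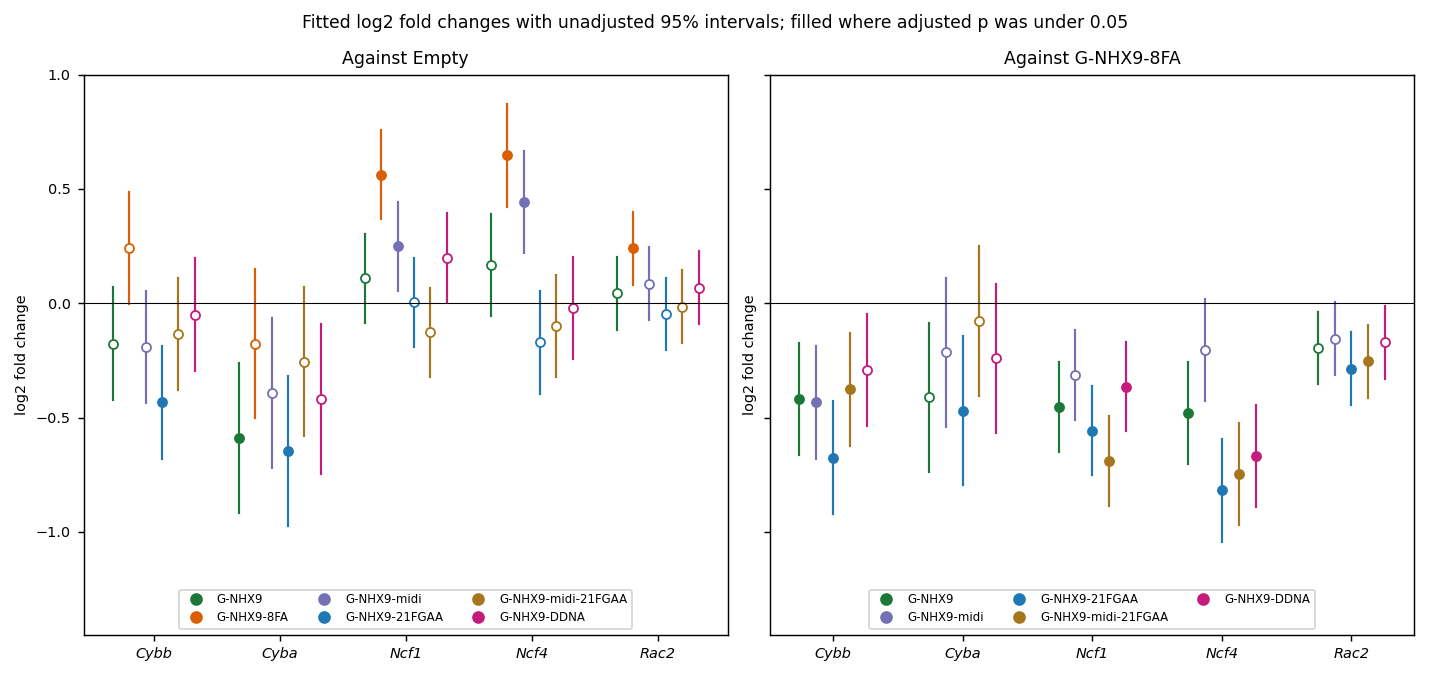
Fitted log2 fold changes of the 5 genes (y axis) with unadjusted 95% intervals, for each construct against Empty (left) and against G-NHX9-8FA (right), where filled points had an adjusted p under 0.05. Against Empty the filled points are Ncf1, Ncf4 and Rac2 above 0 and Cybb and Cyba below it, and against G-NHX9-8FA every filled point is below 0.

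Cybb encodes the catalytic subunit, which carries the heme and flavin groups that pass on the electrons. In replicates 1 to 5, which have no order, its level was 703, 593, 739, 682 and 827 CPM in Empty and 758, 586, 619.5, 646 and 526 CPM in G-NHX9. In G-NHX9-8FA it was 687, 1116, 939.8, 728 and 720.4 CPM, and in G-NHX9-21FGAA 622, 522, 519, 538 and 424 CPM. The G-NHX9-8FA libraries were spread widely, with replicate 2 the highest of all 35. Of the G-NHX9-21FGAA libraries, 4 of 5 lay below every Empty library and all 5 below every G-NHX9-8FA library. Groups did not overlap for 20.2% of all genes in the latter comparison. The means were 709 ± 85.1 (SD, n = 5), 627 ± 85.6, 838 ± 185 and 525 ± 70.4 CPM in that order. G-NHX9-midi was at 621 ± 43.3, G-NHX9-midi-21FGAA at 646 ± 106 and G-NHX9-DDNA at 685 ± 47.6 CPM.

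Cybb fell 1.60-fold from G-NHX9-8FA to G-NHX9-21FGAA (log2 fold change -0.68, SE 0.13, adjusted p = 9.14e-05), a call that held without any 1 library. Against Empty it was 1.35-fold lower in G-NHX9-21FGAA (log2 fold change -0.43, SE 0.13, adjusted p = 0.0099). Without G-NHX9-21FGAA replicate 5 that difference was -0.34 with an adjusted p of 0.0596. Cybb was 1.34-fold higher in G-NHX9-8FA than in G-NHX9 (adjusted p = 0.0223), a call lost without G-NHX9 replicate 2 or 5 or G-NHX9-8FA replicate 2 or 3, with log2 fold changes of 0.29 to 0.39 and adjusted p 0.0553 to 0.117. It was lower than in G-NHX9-8FA by 1.35-fold in G-NHX9-midi (adjusted p = 0.0417) and by 1.30-fold in G-NHX9-midi-21FGAA (adjusted p = 0.0173). The former call was lost without G-NHX9-8FA replicate 2 or 3 or G-NHX9-midi replicate 1, 2, 3 or 4 (adjusted p 0.0702 to 0.212), and the latter without G-NHX9-8FA replicate 2 or 3 or G-NHX9-midi-21FGAA replicate 3 or 5 (adjusted p 0.0669 to 0.142). Without TMM scaling the calls of Cybb other than that between G-NHX9-21FGAA and G-NHX9-8FA were lost (adjusted p 0.0567 to 0.107), and without a filter or in fits of only the compared conditions the last 3 were (adjusted p 0.0503 to 0.123). Against Empty, Cybb had a log2 fold change of 0.24 in G-NHX9-8FA (adjusted p = 0.162) and -0.18 in G-NHX9 (adjusted p = 0.309), neither past the threshold.

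Cyba encodes p22phox, which stabilizes gp91phox in the membrane and docks p47phox. Its level in replicates 1 to 5 was 771, 958, 850.3, 619.6 and 589.7 CPM in Empty, 531, 545, 679.8, 425 and 337 CPM in G-NHX9 and 434, 595, 528, 503 and 360.1 CPM in G-NHX9-21FGAA. In both constructs 4 of 5 libraries lay below every Empty library, and 1 library of each reached into the Empty range. The means fell from 758 ± 155 CPM (SD, n = 5) to 504 ± 130 and 484 ± 89.9 CPM. Cyba was 1.5-fold lower in G-NHX9 (log2 fold change -0.59, SE 0.17, adjusted p = 0.00652) and 1.57-fold lower in G-NHX9-21FGAA (-0.65, SE 0.17, adjusted p = 0.0042). Both calls held without any 1 library.

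The other 4 constructs also had lower Cyba means than Empty, with 670 ± 140 CPM in G-NHX9-8FA, 577 ± 86.1 in G-NHX9-midi, 635 ± 80.9 in G-NHX9-midi-21FGAA and 567 ± 81.6 in G-NHX9-DDNA. None of these passed (adjusted p 0.0592 to 0.473). G-NHX9-midi, at a log2 fold change of -0.39, passed without Empty replicate 4 or 5 or G-NHX9-midi replicate 4 (adjusted p 0.0264 to 0.0368) and in 8 of 10 other settings, DESeq2 among them (adjusted p = 0.0382). For G-NHX9-DDNA the log2 fold change was -0.42 (adjusted p = 0.0791); it passed without Empty replicate 5 (adjusted p = 0.0483), and blocked by replicate number the value was -0.41 (adjusted p = 0.0222). Cyba was 1.38-fold lower in G-NHX9-21FGAA than in G-NHX9-8FA (adjusted p = 0.0295), a call lost without G-NHX9-21FGAA replicate 1 or 5 or G-NHX9-8FA replicate 1 or 2 (adjusted p 0.0576 to 0.162) and in 5 of 10 other settings (adjusted p 0.0535 to 0.42).

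Ncf1 encodes p47phox, the organizer that is phosphorylated on activation and carries the cytosolic subunits to the membrane. Empty held 372, 359, 391, 402 and 403 CPM and G-NHX9 371, 414, 410.4, 457 and 425 CPM in replicates 1 to 5. The level in G-NHX9-8FA was 435, 645, 515, 616 and 635 CPM. All 5 G-NHX9-8FA libraries lay above every Empty library, which was so for 17.1% of all genes in either direction, and 4 of 5 lay above every G-NHX9 library. With means of 385 ± 19.3, 415 ± 30.9 and 569 ± 90.9 CPM (SD, n = 5), Ncf1 was 1.48-fold higher in G-NHX9-8FA than in Empty (log2 fold change 0.56, SE 0.10, adjusted p = 6.14e-05). It was 1.37-fold higher than in G-NHX9 (0.45, SE 0.10, adjusted p = 0.00184), and both calls held without any 1 library.

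In G-NHX9-midi, Ncf1 was at 352, 509, 437, 452 and 539 CPM, with 4 libraries above every Empty library and 1 below them all. Its mean of 458 ± 72.1 CPM was 1.19-fold that of Empty (log2 fold change 0.25, adjusted p = 0.0448). That call was lost without any 1 of the 5 Empty libraries or without G-NHX9-midi replicate 2, 4 or 5 (log2 fold changes 0.18 to 0.26, adjusted p 0.0607 to 0.156), and it held in 4 of 10 other settings, DESeq2 not among them (adjusted p = 0.0513). The FG-substituted constructs were at 387 ± 27.6 CPM (G-NHX9-21FGAA) and 353 ± 20.3 CPM (G-NHX9-midi-21FGAA). Ncf1 was 1.47-fold lower in G-NHX9-21FGAA than in G-NHX9-8FA (adjusted p = 5.17e-05) and 1.61-fold lower in G-NHX9-midi-21FGAA (adjusted p = 1.58e-06), with no overlap in either pair (20.2% and 25.6% of all genes). From G-NHX9-midi to G-NHX9-midi-21FGAA it fell 1.30-fold (adjusted p = 0.00258). G-NHX9-DDNA held 454, 495, 446, 405 and 411 CPM, with all 5 libraries above every Empty library, yet the log2 fold change of 0.20 did not pass (adjusted p = 0.173). Groups did not overlap for 12.1% of all genes in that comparison. Against G-NHX9-8FA it was 1.29-fold lower in G-NHX9-DDNA (adjusted p = 0.00462).

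Ncf4 encodes p40phox, which binds phosphatidylinositol 3-phosphate on phagosomes. It had the most calls of the 5 genes, in 10 of 21 pairs. Its level in replicates 1 to 5 was 138, 144, 127, 116 and 108 CPM in Empty, 199, 209.6, 184, 204 and 195 CPM in G-NHX9-8FA and 153, 155, 168, 189 and 194 CPM in G-NHX9-midi. Every library of both constructs lay above every Empty library, which in G-NHX9-midi was so for 27.4% of all genes in either direction. The means were 127 ± 15.1, 198 ± 9.90 and 172 ± 18.9 CPM (SD, n = 5). Ncf4 was 1.57-fold higher in G-NHX9-8FA (log2 fold change 0.65, SE 0.11, adjusted p = 5.93e-05) and 1.36-fold higher in G-NHX9-midi (0.44, SE 0.11, adjusted p = 0.00223) than in Empty. Neither call depended on 1 library.

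G-NHX9 held 140.4, 157, 171, 133 and 109 CPM of Ncf4 and G-NHX9-21FGAA 103, 129, 124, 114 and 91.1 CPM. G-NHX9 thus overlapped Empty, and all 5 of its libraries lay below every G-NHX9-8FA library, as groups did without overlap for 9.4% of all genes. Ncf4 was 1.40-fold higher in G-NHX9-8FA than in G-NHX9 (log2 fold change 0.48, SE 0.11, adjusted p = 0.00382). The G-NHX9-21FGAA mean of 112 ± 15.5 CPM was 1.26-fold below that of G-NHX9 (adjusted p = 0.0369), a call lost without any of G-NHX9 replicates 1 to 4 or G-NHX9-21FGAA replicate 1, 4 or 5 (adjusted p 0.0548 to 0.166), without a filter (0.136) and in a fit of those 2 conditions (0.12). Against G-NHX9-8FA, Ncf4 was 1.76-fold lower in G-NHX9-21FGAA (adjusted p = 1.28e-06), 1.68-fold lower in G-NHX9-midi-21FGAA (adjusted p = 3.89e-06) and 1.59-fold lower in G-NHX9-DDNA (adjusted p = 2.85e-05). Against G-NHX9-midi it was 1.53-fold lower in G-NHX9-21FGAA (adjusted p = 6.58e-05), 1.46-fold lower in G-NHX9-midi-21FGAA (adjusted p = 0.000239) and 1.38-fold lower in G-NHX9-DDNA (adjusted p = 0.00149). In these 6 pairs no library of one group reached the other, against 20.2%, 25.6%, 22.1%, 24.5%, 30.1% and 27.9% of all genes in the same order. The first 5 of these calls held without any 1 library, and in the last, which was added after the values had been seen, 20.5% of all genes were lower and no library was left out.

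Rac2 is the Rac GTPase of hematopoietic cells and is active in its GTP-bound form. Empty held 272, 248, 251, 296 and 307 CPM in replicates 1 to 5 and G-NHX9-8FA 304, 330.5, 269, 329.8 and 389 CPM, with 3 of the latter above every Empty library. The other 5 constructs lay between 249.6 and 336 CPM. Rac2 was 1.18-fold higher in G-NHX9-8FA than in Empty (means 325 ± 43.8 and 275 ± 26.4 CPM, SD, n = 5, log2 fold change 0.24, SE 0.08, adjusted p = 0.0268). That call was lost without Empty replicate 1, 2 or 3 or G-NHX9-8FA replicate 2, 4 or 5 (log2 fold changes 0.15 to 0.23, adjusted p 0.0507 to 0.16). Compared with G-NHX9-8FA it was 1.22-fold lower in G-NHX9-21FGAA (adjusted p = 0.00662) and 1.19-fold lower in G-NHX9-midi-21FGAA (adjusted p = 0.013). The former was lost without G-NHX9-8FA replicate 5 (log2 fold change -0.19, adjusted p = 0.0659), and the latter without G-NHX9-8FA replicate 4 or 5 or G-NHX9-midi-21FGAA replicate 3 (adjusted p 0.0555 to 0.114). Every Rac2 call was thus lost without G-NHX9-8FA replicate 5, its highest library, and also without a filter or in fits of only the compared conditions (adjusted p 0.0771 to 0.179).

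Rac1, the widely expressed relative that serves the oxidase in other cells, held 338, 379.7, 373, 365 and 396 CPM in Empty and 258 to 349 CPM in the constructs. It was lower than in Empty in all 6 constructs (log2 fold changes -0.35 to -0.19, adjusted p 4.44e-05 to 0.0331). Daglb and Gm42502 overlap Rac1 on the opposite strand. With the strand setting of the counting not given, reads of Rac1 may include some from them. Rac2 was also expressed as a percentage of Rac1, Rac2 and Rac3 counts per kilobase of exon, a ratio within each library that does not depend on scaling between libraries but also depends on Rac1. The share was 51.4 ± 2.50% in Empty (SD, n = 5), 58.4 ± 2.21% in G-NHX9, 60.2 ± 3.11% in G-NHX9-8FA and 57.8 ± 1.70% in G-NHX9-midi. G-NHX9-DDNA was at 56.5 ± 1.56%, G-NHX9-21FGAA at 55.6 ± 2.68% and G-NHX9-midi-21FGAA at 54.5 ± 2.26%. The first 3 constructs and G-NHX9-DDNA had a raised Rac2 share, by 6.98, 8.72, 6.38 and 5.10 percentage points, by an exact two-sided permutation test over libraries (p = 0.00794 in each, the smallest that 5 libraries against 5 allow, adjusted p = 0.0357 over 18 tests). Rac2 itself did not pass in G-NHX9, G-NHX9-midi and G-NHX9-DDNA (log2 fold changes 0.04, 0.08 and 0.07), where Rac1, part of the denominator, was lower. The differences of 4.21 points in G-NHX9-21FGAA (adjusted p = 0.143, exact permutation test) and 3.06 points in G-NHX9-midi-21FGAA (adjusted p = 0.254) did not pass. Leaving out 1 library cost the call of G-NHX9-8FA without any 1 of the Empty libraries and that of G-NHX9-DDNA without its replicate 1, 2 or 4 (exact permutation test, adjusted p = 0.0714), while the differences stayed between 7.76 and 9.84 and between 4.36 and 5.68 points. Every library of both constructs lay above every Empty library. With 1 library fewer, the smallest p that the exact permutation test allows is larger.

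**Figure D3:**
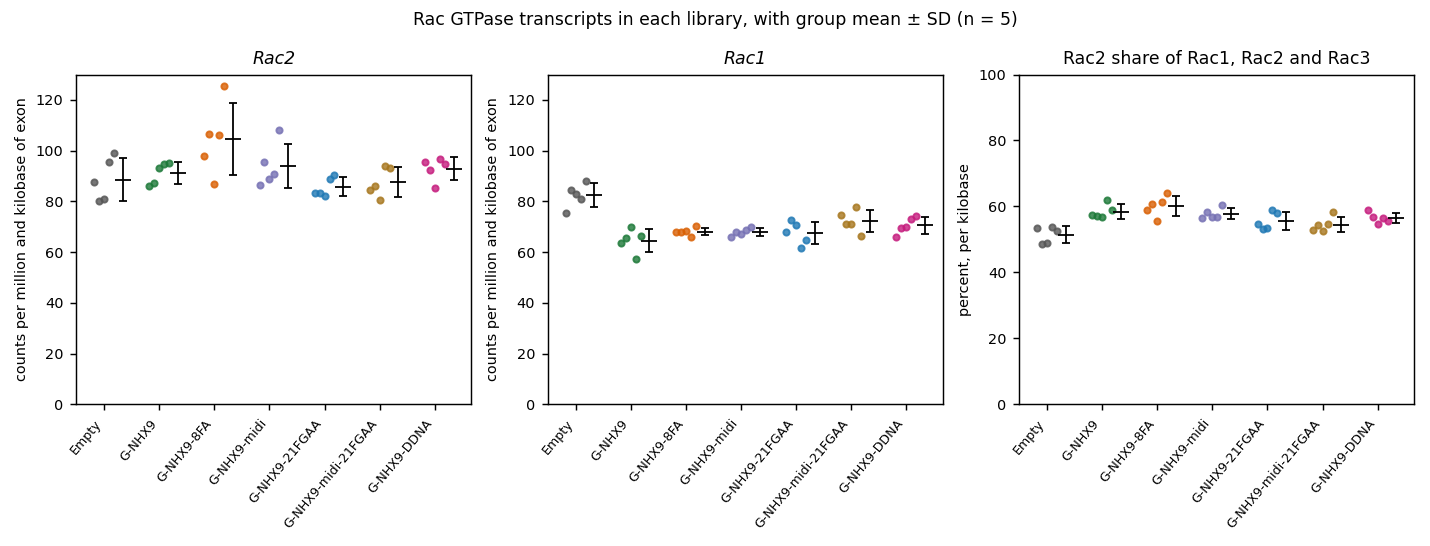
Rac2 and Rac1 in CPM per kilobase of exon, and Rac2 as a percentage of Rac1, Rac2 and Rac3 (y axes, linear from 0), in the 7 conditions (x axis), with points for libraries and bars for mean and SD. In the share, Empty spans 48.5 to 53.8% and has the lowest mean, 51.4%.

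The other 12 tests of ratios did not pass. Per length, Cyba exceeded Cybb in every condition, with a mean log2 ratio of Cybb to Cyba of -2.56 in Empty and -2.14 in G-NHX9. Neither this ratio nor that of Ncf1 to Ncf4 differed from Empty in any construct by the exact permutation test (adjusted p 0.254 to 0.802).

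Cybc1, a chaperone of the flavocytochrome, was lower in G-NHX9-21FGAA than in Empty (log2 fold change -0.32, adjusted p = 0.00394). Hvcn1, the proton channel that balances the charge the oxidase moves, was lower in G-NHX9 (-0.65), G-NHX9-midi (-0.62) and G-NHX9-21FGAA (-0.60). The 9 genes of other NADPH oxidases and their partners summed to 0.793 to 1.54 CPM, and only Noxo1 passed the low-count filter.

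The genes around the oxidase were described against Empty by counts, from lists chosen with earlier results of these data known. Over all genes tested, the share called higher against Empty was 16.9% in G-NHX9, 13.4% in G-NHX9-8FA, 20.5% in G-NHX9-midi, 14.7% in G-NHX9-21FGAA, 9.59% in G-NHX9-midi-21FGAA and 9.85% in G-NHX9-DDNA. The share called lower was 15.2%, 13.2%, 20%, 12.5%, 7.32% and 7.35% in the same order. Among 14 receptors that trigger the oxidase, 7 were lower and 1 higher in G-NHX9, 3 and 2 in G-NHX9-8FA, 7 and 3 in G-NHX9-midi, and 10 and 0 in G-NHX9-21FGAA. Their median log2 fold change was -0.44, -0.10, -0.34 and -0.51 in these 4, where all genes had 0.01, 0.03, 0.02 and -0.02. Itgb2, the integrin chain shared by CR3 and LFA-1, had log2 fold changes of -0.97 in G-NHX9 and -0.38 in G-NHX9-8FA (adjusted p = 2.83e-06 and 0.0456). Clec7a, a receptor for fungal glucans, had -0.98 in G-NHX9 (adjusted p = 0.0049) and -0.68 in G-NHX9-8FA (adjusted p = 0.057). In G-NHX9-midi-21FGAA and G-NHX9-DDNA 1 and 3 of the receptors were lower and none higher.

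Of 16 kinases and lipid enzymes of oxidase activation, 6 were lower in G-NHX9 and in G-NHX9-8FA, 7 in G-NHX9-midi, 4 in G-NHX9-21FGAA, 2 in G-NHX9-midi-21FGAA and 3 in G-NHX9-DDNA, with 1 or 2 higher in each. Their median log2 fold change was -0.13 in G-NHX9 and -0.20 in G-NHX9-8FA, beside 0.01 and 0.03 for all genes. Prkcd, which phosphorylates p47phox, had log2 fold changes of -0.45 in G-NHX9 and -0.23 in G-NHX9-8FA (adjusted p = 3.95e-05 and 0.0336). Of 12 Rac regulators, 3 were higher and 1 lower in G-NHX9 and 1 was higher and 2 lower in G-NHX9-8FA by the same test, with median log2 fold changes of -0.08 and 0.00.

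Of 17 genes tested for removal of reactive oxygen, 6 were lower and 1 higher in G-NHX9, and 3 were lower and 4 higher in G-NHX9-8FA, beside 15.2% lower and 16.9% higher and 13.2% lower and 13.4% higher among all genes. The median log2 fold change of the list was -0.13 and 0.02. Cat, which breaks down hydrogen peroxide, was lower in all 6 constructs, with -0.74 in G-NHX9. Gpx1, a glutathione peroxidase, was higher in G-NHX9-8FA (log2 fold change 0.37, adjusted p = 0.00486), and Prdx5 too (0.70, adjusted p = 0.000372). Of the 10 genes of NADPH supply, 3 were higher and 1 lower in G-NHX9-8FA and 0 higher and 1 lower in G-NHX9; Tkt, a transketolase, was at 0.32 and 0.22 (adjusted p = 0.026 and 0.129). The medians of that list were 0.18 in G-NHX9-8FA and 0.02 in G-NHX9.

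Of 11 transcription factors known to act on oxidase genes, 5 were higher and 2 lower in G-NHX9, 4 and 0 in G-NHX9-8FA, 5 and 1 in G-NHX9-midi, 4 and 5 in G-NHX9-21FGAA, 0 and 2 in G-NHX9-midi-21FGAA, and 4 and 1 in G-NHX9-DDNA. Their median log2 fold changes in this order were 0.10, -0.01, -0.01, 0.15, 0.08 and 0.16, where all genes had -0.02 to 0.03. Spi1, which encodes PU.1, fell in G-NHX9 (log2 fold change -0.38, adjusted p = 0.000153) and in G-NHX9-21FGAA (-0.46, adjusted p = 3.83e-05), and had a value of -0.01 in G-NHX9-8FA (adjusted p = 0.929). It also fell in G-NHX9-midi-21FGAA (-0.25, adjusted p = 0.0209), where none of the 5 oxidase genes passed. Cebpa was higher in G-NHX9-8FA (0.47) and lower in G-NHX9-21FGAA (-0.31), and Cebpb was lower in both G-NHX9 (-0.76) and G-NHX9-21FGAA (-0.49).

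The 5 genes did not vary as 1 unit among replicates. Within conditions, over 35 libraries that share the culture conditions, the scaling and, by number, part of their deviations, the correlation of log2 CPM was 0.80 for Cyba with Ncf4, 0.56 for Ncf1 with Rac2, 0.28 for Ncf1 with Ncf4, 0.04 for Cybb with Cyba and -0.55 for Cyba with Rac2. For Cybb with Cyba, the pair that forms the flavocytochrome, it was 0.37 over the 35 libraries without regard to condition and 0.73 over the 7 condition means. Over all 35 libraries and 10307 genes, the genes most like Cyba were Capg (r = 0.96) and Gabarap (0.94), and those most like Ncf4 were Msra (0.92) and Cdk2ap2 (0.91). Ncf1 was most like Rdh12 and Ppm1m (both 0.90), Rac2 like Cfap43 and Cables2 (both 0.84), and Cybb like Il1f9 (0.83) and Pde1b (0.77).

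The levels of Cyba and Ncf4 were also correlated with a difference between short and long transcripts. For each library the median log2 CPM of 730 genes with under 1500 bases of exon was taken minus that of 5242 genes with over 4500 bases, and this difference, centred gene by gene on the mean of all libraries, ran from -0.27 to 0.44. Within conditions its correlation over the 35 libraries was 0.78 for Ncf4 (2020 bases of exon) and 0.71 for Cyba (1039 bases), against 0.19 for Ncf1 (3663 bases), -0.16 for Cybb (5808 bases) and -0.31 for Rac2 (3103 bases). Its mean was 0.01 in Empty and in G-NHX9, 0.17 in G-NHX9-8FA, 0.10 in G-NHX9-midi and -0.09 in G-NHX9-21FGAA. With this difference as a covariate, chosen after seeing the data, Ncf4 kept its calls in G-NHX9-8FA and G-NHX9-midi against Empty. Cyba was then also lower than Empty in G-NHX9-8FA (log2 fold change -0.36, adjusted p = 0.0363) and in G-NHX9-midi (-0.49, adjusted p = 0.0017), and no longer lower in G-NHX9-21FGAA than in G-NHX9-8FA (-0.16, adjusted p = 0.42). Ncf1 in G-NHX9-midi lost its call against Empty (0.23, adjusted p = 0.0589).

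**Figure D4:**
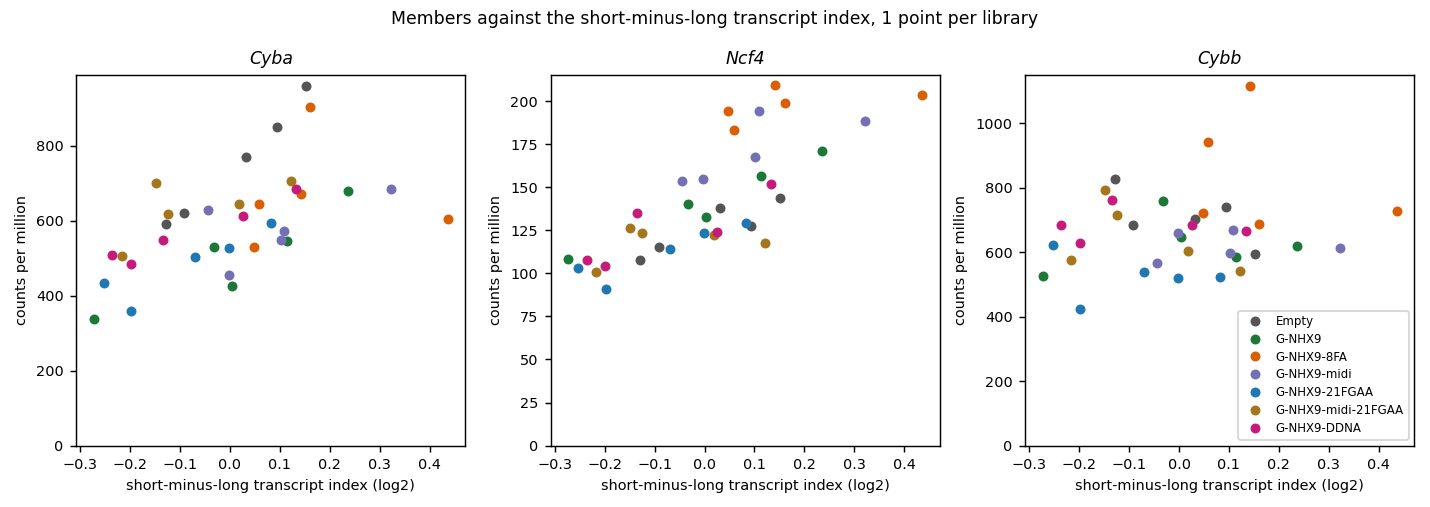
Level of Cyba, Ncf4 and Cybb (y axes, CPM, linear from 0) against the short-minus-long transcript difference of each library (x axis, log2), coloured by condition, with 1 point for each of 35 libraries. Cyba (within-condition r = 0.71) and Ncf4 (r = 0.78) are higher where the difference is higher, and Cybb (r = -0.16) is not.

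Markers of mature cell types also differed between conditions. The 12 late neutrophil markers summed to 11719 CPM in Empty (9084 to 13018), 26104 CPM in G-NHX9-8FA (15422 to 34175), 16991 CPM in G-NHX9-midi (10329 to 22078) and 11161 CPM in G-NHX9-21FGAA (7277 to 13217), with 7 of 12 higher and 0 lower in G-NHX9-8FA against Empty. In G-NHX9-midi 3 were higher and 3 lower. In G-NHX9-DDNA, where none of the 5 oxidase genes passed, the sum was 16575 CPM (11793 to 20384), with 3 higher (Ltf, S100a8 and Cd177) and 2 lower. Within conditions the sum correlated at 0.69 with Ncf1, 0.56 with Ncf4, 0.50 with Cybb, 0.24 with Rac2 and 0.10 with Cyba over the 35 libraries. The part of these cells in the levels of Ncf1, Ncf4 and Cybb in G-NHX9-8FA was not tested.

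Cyba was correlated with macrophage markers instead. These 14 genes summed to 9421 CPM in Empty (7682 to 11752), 7772 CPM in G-NHX9 (4355 to 10473) and 5795 CPM in G-NHX9-21FGAA (4358 to 6848), with 7 of 14 lower in each of the latter and 3 higher in G-NHX9 (C1qa, C1qb and C1qc). The sum was 7017 CPM in G-NHX9-midi, with 9 lower and 1 higher, and 6280 CPM in G-NHX9-DDNA, with 4 lower. Cyba had log2 fold changes of -0.39 and -0.42 against Empty in these constructs. Neither passed by edgeR's quasi-likelihood test (adjusted p = 0.0592 and 0.0791). In G-NHX9-midi-21FGAA the sum was 7330 CPM, below that of G-NHX9, and in G-NHX9-8FA it was 9362 CPM. Cyba did not pass in these 2 constructs by the same test (log2 fold changes -0.26 and -0.18, adjusted p = 0.315 and 0.473). Within conditions this sum correlated at 0.77 with Cyba, 0.35 with Ncf4 and 0.21 with Cybb, and at -0.60 with Ncf1 and -0.65 with Rac2. Its part in the lower Cyba of G-NHX9 and G-NHX9-21FGAA was not tested.

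Markers of other lineages were higher in G-NHX9-21FGAA than in G-NHX9-8FA, where 15.3% of all genes tested were higher. Erythroid markers summed to 1183 CPM against 142 CPM, with 11 of 11 tested higher, and mast cell and basophil markers to 4203 CPM against 957 CPM, with 11 of 11 higher. Eosinophil markers (7 of 8) and megakaryocyte markers (7 of 7) were higher as well. High sums were not particular to G-NHX9-21FGAA. Erythroid markers summed to 1341 CPM in G-NHX9-midi-21FGAA and 1186 CPM in G-NHX9-DDNA, and mast cell and basophil markers to 5300 and 3463 CPM. Against G-NHX9-8FA, 4 and 2 of the 5 oxidase genes were lower in these constructs, and Cyba was not called in either. No gene of these 4 lists was at 0 in every library, and their part in the lower level of all 5 oxidase genes in G-NHX9-21FGAA was not tested. Early granule markers summed to 363 CPM in Empty, 1233 CPM in G-NHX9 and 1162 CPM in G-NHX9-8FA. Their sum was 1051 CPM in G-NHX9-midi, 995 CPM in G-NHX9-21FGAA, 1157 CPM in G-NHX9-DDNA and 323 CPM in G-NHX9-midi-21FGAA. Stem and progenitor markers summed to 282 to 624 CPM over the conditions, and T and B lymphocyte markers to 1.12 to 2.03 CPM.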

How the data were processed

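Libraries of total RNA (TruSeq Stranded) were sequenced on a NovaSeq. The authors deposited the counts of reads on each of 49671 genes, whole numbers without normalization. The submitters' processing notes name STAR 2.7.0d, HTSeq 0.11.2, DESeq2 and mm10, and the strand setting was not given in the sources used here. Groups and replicate numbers came from the sample labels.

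The oxidase genes and all gene lists were chosen with earlier results of these data known. The quasi-likelihood test of edgeR 4.0.16 (with limma 3.58.1, R 4.3.3) was run on 17166 genes, which filterByExpr kept with 99.96% of counts. Its model had 1 mean per condition, used all 35 libraries and TMM scaling, and was first tested on simulated data. Benjamini-Hochberg adjustment covered all genes tested in each comparison, with a threshold of 0.05. Printed CPM include the TMM factors, and a prior count of 2 was used for log2 CPM. Levels per kilobase used exon length from GENCODE M21, in which 49326 gene identifiers were found without version. Correlations within conditions were taken after subtracting each condition's mean. Subunit ratios were compared by exact permutation tests over libraries.

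Named were the 5 genes, the genes of the lists (examples from the 4 most abundant of a list, or those a result turned on) and the 2 genes most correlated with each among genes of at least 5 CPM. Total counts were 31559914 to 75810659, so that counting error was small beside the spread between libraries. No replicates were copies of each other: in 70 pairs chi-square per degree of freedom was 23.2 or more. Alternatives were DESeq2 1.42.0, other scalings and filters, fits of 2 groups, a replicate block, a covariate of Y-linked transcripts (the mice were of both sexes) and leaving out each library. Same-numbered libraries deviated together (mean r = 0.232, against -0.0571 for other numbers), and all 5 pairs were above 0.1 in 5 of 13 comparisons: G-NHX9, G-NHX9-midi-21FGAA and G-NHX9-DDNA against Empty, and G-NHX9-21FGAA and G-NHX9-DDNA against G-NHX9.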

Additional observations from a re-analysis of the deposited data

How the results depend on the processing

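Over 80 results for single genes and 1600 alternatives, 1478 kept their side of the threshold, 75 lost and 47 gained a call; 45 values that were not called changed sign, and none with a call did. The number of the 5 genes called moved as follows, and the cause was not tested. Without TMM it went from 1 to 3 in G-NHX9, from 2 to 1 in G-NHX9-21FGAA and from 0 to 1 in G-NHX9-DDNA against Empty, and against G-NHX9-8FA from 1 to 0 in G-NHX9-midi, 5 to 3 in G-NHX9-21FGAA and 4 to 2 in G-NHX9-midi-21FGAA. The same last 3 changes came without a filter and with only the 2 groups fitted, which also took the 1 call of G-NHX9-21FGAA against G-NHX9 to 0; without a filter G-NHX9-midi against Empty went from 2 to 1. DESeq2 gave 2 for G-NHX9-midi against G-NHX9-8FA. Among smaller moves, G-NHX9-8FA against G-NHX9 lost Cybb without TMM, without a filter and with only the 2 groups fitted. G-NHX9-8FA against Empty lost Rac2 without a filter and with only the 2 groups fitted. Without TMM the median gene against Empty was 0.08 to 0.19 higher on the log2 scale, against -0.02 to 0.03 with it.

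With the replicate block, G-NHX9-DDNA against Empty (pairing held) gave 1 call. In comparisons whose libraries share only a number, the block gave 5 calls (3 without it) for G-NHX9-8FA and 1 (0) for G-NHX9-midi against G-NHX9, 2 (1) for G-NHX9-midi against G-NHX9-8FA and 2 (1) for G-NHX9-21FGAA against G-NHX9-midi. With the block and the short-minus-long covariate together, counts were 1 for G-NHX9-DDNA against Empty, 1 for G-NHX9-midi and 1 for G-NHX9-DDNA against G-NHX9, 2 for G-NHX9-midi against G-NHX9-8FA and 2 for G-NHX9-21FGAA against G-NHX9-midi. The Y-linked covariate also gave 2 for the last. As differences paired by replicate number, the Rac2 share was 6.98, 8.72, 6.38 and 5.10 points above Empty in G-NHX9, G-NHX9-8FA, G-NHX9-midi and G-NHX9-DDNA, and 5 pairs cannot pass (adjusted p = 0.141). The block changed no other count by over 1.5 times. The short-minus-long covariate, alone or with the block, and the comparisons of G-NHX9-21FGAA, G-NHX9-midi-21FGAA and G-NHX9-DDNA with G-NHX9-8FA were added after seeing the data.

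Leaving out 1 library gave, against Empty, 2 to 3 calls in G-NHX9-8FA, 1 to 2 in G-NHX9-midi, 1 to 2 in G-NHX9-21FGAA and 0 to 1 in G-NHX9-DDNA. Against G-NHX9 it gave 2 to 4 in G-NHX9-8FA, 0 to 1 in G-NHX9-midi and 0 to 1 in G-NHX9-21FGAA. Against G-NHX9-8FA it gave 0 to 2 in G-NHX9-midi, 4 to 5 in G-NHX9-21FGAA, 2 to 4 in G-NHX9-midi-21FGAA and 2 to 3 in G-NHX9-DDNA, and 1 to 2 in G-NHX9-21FGAA against G-NHX9-midi. The Rac2 share ranged from 7.76 to 9.84 points in G-NHX9-8FA and from 4.36 to 5.68 in G-NHX9-DDNA. Depth was not the limit at 3483 counts or more per gene and library.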
